A study of Sus scrofa with 24 samples.

Results

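The utero-tubal junction (UTJ) of sows that had mated with a boar was compared with the UTJ of sows that had received seminal plasma (SP) without spermatozoa, across all genes of the array. The members were the 8 arrays labelled as mated and the 8 arrays labelled as SP-infused, 16 of the 24 arrays of the series, and 12365 genes, each represented by the probe set with the highest mean over the 24 arrays among those with 1 gene symbol. The sows were weaned Swedish Landrace animals in standing oestrus. On the first day of oestrus they were mated, infused cervically with 50 ml of SP from whole ejaculates, or infused with 50 ml of the semen extender BTS as the control, and the tissue was collected surgically on the next day, within 24 h. The methods name 4 sows in each group, and each UTJ was hybridised on its own, so that 8 arrays of a group came from 4 animals. The labels do not say which arrays come from the same sow. The arrays were therefore the unit of every test, and p-values are too small and intervals too narrow to the extent that 2 arrays of a sow are alike. Mating brought spermatozoa, SP and the contact with a boar together, whereas SP-infusion brought a set volume of SP through a catheter, and these parts of the contrast cannot be told apart.

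The UTJ is the narrow passage between the uterine horn and the oviduct. In pigs its folded, mucus-filled lumen holds the sperm reservoir, in which spermatozoa attach to ciliated and secretory epithelial cells until ovulation. SP is the fluid of the accessory glands and epididymis, and it carries proteins and cytokines that are known in several mammals to act on the immune cells and epithelium of the female tract. The contrast of mating with SP-infusion compares whole mating with a set volume of SP that had been kept frozen until use. It does not hold the SP constant, so it cannot show what mating adds beyond the SP itself.

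No gene differed between the 2 groups after adjustment. In limma's moderated test over 27558 probe sets, 0 probe sets had a Benjamini-Hochberg adjusted p under 0.05 and the lowest adjusted p was 0.998. At an unadjusted p under 0.05 there were 920 probe sets, 3.34% of those tested, of which 419 were higher and 501 were lower in the mated UTJ. Among the genes this held for 409 of 12365 (3.31%), with 190 higher (1.54%) and 219 lower (1.77%), where a threshold of 0.05 alone would let about 618 through. When the array medians were made equal, the split turned to 319 higher and 135 lower of 454 genes. The share of higher and lower genes at this threshold thus followed the scaling and is not read further. Without SP-infused replicate 6 the count was 235, without SP-infused replicate 8 it was 269, and without both it was 201.

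The size of the differences was small against the width of their intervals. The median absolute difference over genes was 0.09 on the log2 scale, no gene differed by more than 1 (a 2-fold change) and 116 differed by more than 0.5. The 95% interval of the difference lay inside -1 to 1 for 12016 genes (97.2%) and inside -0.5 to 0.5 for 9655 (78.1%), with a median half-width of 0.25. For 349 genes the interval reached past 1 or -1, so that a 2-fold difference was within what these arrays allow. The values of the 8 mated and the 8 SP-infused arrays overlapped for every gene except RPS6, which is 0.00809% of the genes.

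**Figure D1:**
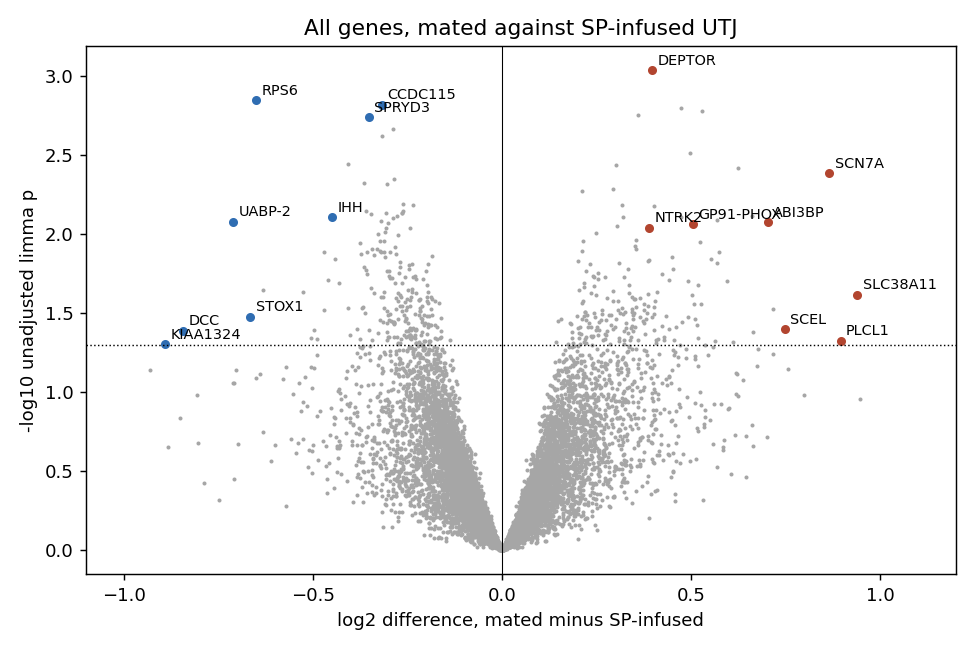
Each point is 1 of the 12365 genes, with the log2 difference of mated minus SP-infused UTJ on the x axis and -log10 of the unadjusted limma p on the y axis; the dotted line marks the unadjusted threshold of 0.05, and coloured points are named genes higher (red) or lower (blue) in the mated UTJ. All differences lie between -1 and 1, and none had an adjusted p under 0.998.

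The markers of the tissue were present on all 16 arrays. EPCAM, an adhesion molecule of epithelial cells, lay between 8.59 and 10.4, FOXJ1, the regulator of motile cilia, between 6.56 and 8.13, and ACTG2, an actin of smooth muscle, between 11.6 and 12.8 on the log2 scale. The 2 groups had array medians of 5.75 to 5.87 (mated) and 5.80 to 5.90 (SP-infused). The correlation between arrays, a description over all genes of arrays that in part share a sow, had a median of 0.971 within the mated group, 0.974 within the SP-infused group and 0.975 between the groups. The first principal component held 28.2% of the variance among the 16 arrays and ran from -36.4 to 31.9 in the mated and from -24.9 to 31.2 in the SP-infused arrays.

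For every gene named below the adjusted p was 0.998 or higher, so the differences are given with their SE as descriptions of these arrays. Among genes higher in the mated UTJ, the lowest unadjusted p belonged to DEPTOR, which encodes an inhibitor of the mTOR kinase. DEPTOR ranged from 7.86 through a median of 8.11 to 8.53 in the mated arrays and from 7.63 through 7.71 to 8.07 in the SP-infused arrays. Every mated value was above the SP-infused median and every SP-infused value was below the mated median, with some overlap of the ranges. The difference was 0.40 (SE 0.11, 95% interval 0.18 to 0.61), and the control arrays ranged from 7.49 to 8.21. PDE3B, a phosphodiesterase that breaks down cyclic nucleotides, was 0.47 higher (SE 0.13). Its mated arrays lay at 6.42, 6.93 and 7.53 (lowest, median, highest) and its SP-infused arrays at 6.06, 6.47 and 6.79, so the ranges overlapped in part. MANBA, the lysosomal beta-mannosidase, had 6.45, 7.11 and 7.66 in the mated and 5.92, 6.35 and 7.20 in the SP-infused arrays, a difference of 0.62 (SE 0.20). LYST, a regulator of lysosomal trafficking, was 0.29 higher (SE 0.10).

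Several other genes of low p are known from immune cells, vessels or nerves. GP91-PHOX, the catalytic subunit of the phagocyte NADPH oxidase listed elsewhere as CYBB, had 5.80, 6.55 and 7.11 in the mated and 5.58, 6.03 and 6.34 in the SP-infused arrays. All SP-infused arrays lay below the mated median, while 2 mated arrays lay below the SP-infused median, and the difference was 0.50 (SE 0.18). CMKLR1, the receptor of the chemoattractant chemerin, was 0.32 higher (SE 0.11), with every mated array above the SP-infused median of 6.55. BMX, a tyrosine kinase of endothelial and myeloid cells, was 0.47 higher (SE 0.16). NTRK2, the receptor of the neurotrophin BDNF, had 8.18, 9.06 and 9.32 against 8.12, 8.54 and 8.95 and a difference of 0.39 (SE 0.14), and LRRTM4, a synaptic adhesion protein, one of 0.40 (SE 0.14). The remaining genes of lowest p were PATL1, a factor of mRNA decay, at 0.21 (SE 0.07), GPR21, an orphan receptor, at 0.32 (SE 0.11), and ABI3BP, a protein of the extracellular matrix, at 0.70 (SE 0.25).

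Among genes at an unadjusted p under 0.05, the 5 of largest difference in favour of the mated UTJ came with wide spread. SLC38A11, of a family of amino acid transporters, ranged from 3.77 through 5.45 to 6.50 in the mated arrays and from 3.26 through 4.05 to 5.55 in the SP-infused arrays. The mated arrays fell into a high set of 5 and a low set of 3 whose values matched the SP-infused range, and the mean difference was 0.94 (SE 0.39, 95% interval 0.13 to 1.75). PLCL1, a phospholipase-like protein without enzyme activity, had 5.48, 6.47 and 7.81 in the mated and 4.49, 5.68 and 6.65 in the SP-infused arrays, a difference of 0.90 (SE 0.43). Its control arrays ranged from 5.58 to 8.69, higher at the top than either group. SCN7A, a sodium channel protein of glia and nerve tissue, had 3.62, 4.80 and 5.88 against 3.21, 3.81 and 4.72, and a difference of 0.87 (SE 0.27). SCEL, a protein of stratified epithelium, differed by 0.75 (SE 0.34), but its mated median of 3.82 lay inside the SP-infused range of 3.13 to 4.01 and the highest mated array reached 6.25. The uncharacterised LOC100520216 differed by 0.72 (SE 0.31).

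**Figure D2:**
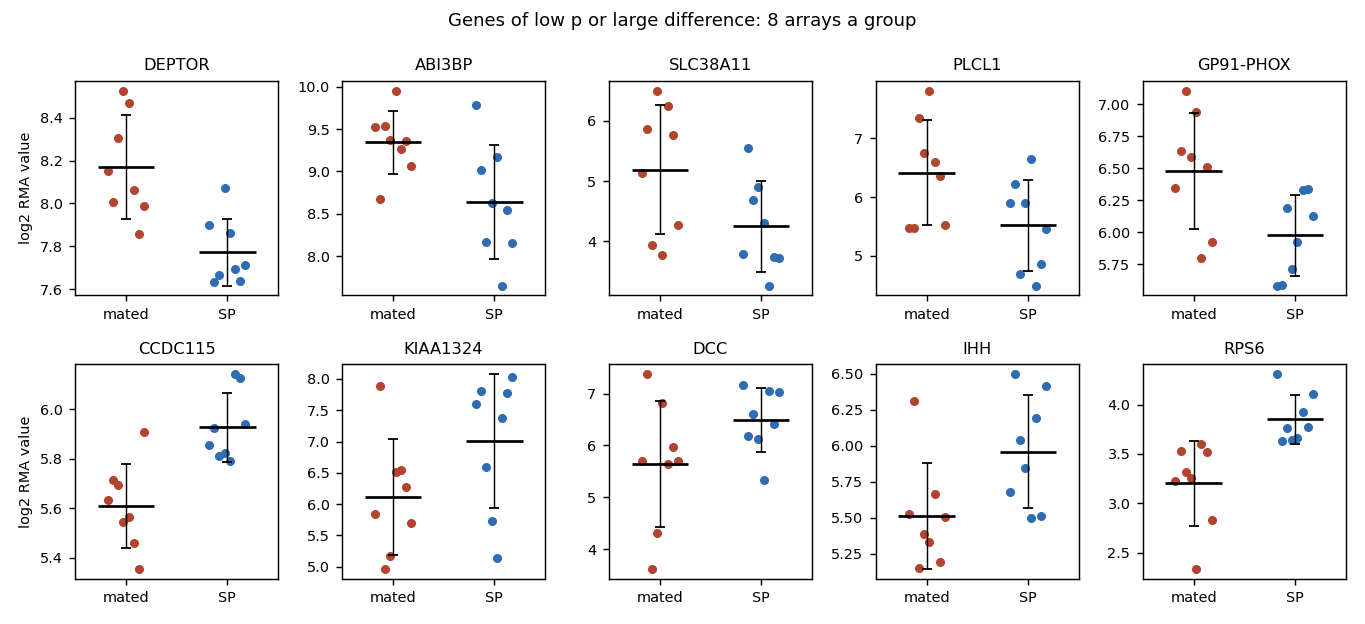
Log2 RMA values of 10 genes on each array (points), with the group mean (bar) and SD (whiskers), for the 8 mated (red) and 8 SP-infused (blue) arrays. The groups overlap for every gene but RPS6, for which the mated arrays end at 3.60 and the SP-infused arrays start at 3.63.

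Among genes lower in the mated UTJ, CCDC115, a factor of the assembly of the vacuolar proton pump, had 5.35, 5.60 and 5.91 in the mated and 5.79, 5.89 and 6.14 in the SP-infused arrays. Only 1 mated array lay above the SP-infused median, and the difference was -0.32 (SE 0.09, 95% interval -0.50 to -0.13). SPRYD3 had 5.96, 6.25 and 6.52 against 6.25, 6.59 and 7.09 and a difference of -0.35 (SE 0.10). UROD, an enzyme of haem synthesis, had 6.13, 6.50 and 6.72 against 6.52, 6.83 and 6.92 and a difference of -0.31 (SE 0.10). All 8 mated arrays were below the SP-infused median for UROD and SPRYD3, and likewise for PRPF31, a splicing factor, at -0.27 (SE 0.09), and C3H7orf50 at -0.35 (SE 0.12). The others of lowest p were STK25, a kinase, at -0.23, ACOT7, an acyl-CoA thioesterase, at -0.36, ZNF787 at -0.26, PCYOX1L at -0.26, LOC100520757 at -0.41 and LOC100513838 at -0.32.

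IHH, the ligand of the hedgehog pathway that in the mouse uterus is a target of the progesterone receptor, had 5.15, 5.45 and 6.31 in the mated and 5.50, 5.94 and 6.50 in the SP-infused arrays. Mated replicate 2 stood at the top of its group and the other 7 mated arrays were below the SP-infused median, with a difference of -0.45 (SE 0.16). The control arrays ranged from 5.62 to 6.10. UABP-2, a serpin of the pig uterus that binds uteroferrin, lay near the bottom of the scale at 2.87, 3.49 and 3.92 in the mated and 3.26, 4.17 and 5.84 in the SP-infused arrays, a difference of -0.71 (SE 0.25). RPS6, a protein of the small ribosomal subunit, had 2.33, 3.29 and 3.60 in the mated and 3.63, 3.77 and 4.31 in the SP-infused arrays. The groups did not overlap and the difference was -0.65 (SE 0.18), while the control arrays ranged from 2.71 to 4.12. Its level was far below the mean of the ribosomal protein genes, 9.03 to 9.46 over these arrays, and near-identical gene copies make the target of such a probe set uncertain.

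In the lower direction, KIAA1324, DCC, UABP-2, STOX1 and RPS6 had the largest differences among genes at an unadjusted p under 0.05. KIAA1324, a membrane protein known from oestrogen-responsive epithelium, ranged from 4.96 through 6.06 to 7.89 in the mated arrays and from 5.14 through 7.49 to 8.03 in the SP-infused arrays. The ranges were almost the same while the medians were apart, and the difference of -0.89 had a 95% interval that ended at -0.001525 (SE 0.43). DCC, the receptor of the guidance molecule netrin, had 3.61, 5.70 and 7.38 against 5.33, 6.51 and 7.16, a difference of -0.84 (SE 0.39), and STOX1, a transcription factor, differed by -0.67 (SE 0.30).

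The gene lists described next were chosen with earlier results of these data known, and their members are correlated within a sample. In bulk tissue fewer cells of a type and less RNA per cell cannot be told apart. For the 42 lists the median difference is set beside that of all genes, -0.01, and the share of members higher in the mated UTJ beside the 46.3% over all genes. That share over all genes was 54.1% when the array medians were made equal. The counts of higher and lower members below are those of the deposited scaling only. The number of members at an unadjusted p under 0.05, 0 to 2 in each list, is to be read against the 3.31% over all genes, which makes about 1 gene in a list of 30. In no list did a member have an adjusted p under 0.05.

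The lists of lowest median were those of dividing cells and of the epithelium. Of 29 measured cell cycle genes 0 were higher in the mated UTJ, the median difference was -0.30, and 0 had p under 0.05. CDC20, an activator of the anaphase-promoting complex, had 5.24, 6.57 and 7.41 in the mated and 6.27, 6.92 and 7.81 in the SP-infused arrays, a difference of -0.50 (SE 0.29). E2F1, a transcription factor of entry into S phase, differed by -0.32 (SE 0.17), MCM2, of the replicative helicase, by -0.29 (SE 0.17), and TPX2, of the mitotic spindle, by -0.53 (SE 0.34). The mean level of the list stood at 7.34 in SP-infused replicate 6 and 7.07 in SP-infused replicate 8, whereas the other 6 SP-infused arrays and all mated arrays lay between 5.34 and 6.63. Without SP-infused replicate 6 the median difference of the list was -0.15. Without both arrays the median difference of the list was -0.01 and 17 of the 29 genes were lower.

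Of 25 secretory epithelium genes 21 were lower in the mated UTJ, with a median of -0.22, and 1 had p under 0.05. This was SOX17, a transcription factor of epithelium and endothelium, with 6.85, 7.40 and 7.85 in the mated and 7.29, 7.60 and 8.07 in the SP-infused arrays and a difference of -0.30 (SE 0.14). EPCAM differed by -0.38 (SE 0.19), KRT18, a keratin of simple epithelium, by -0.57 (SE 0.30) and MSX1, a homeobox gene of the uterine epithelium, by -0.71 (SE 0.40). Of 23 ciliated cell genes 21 were lower with a median of -0.14 and 0 had p under 0.05; MCIDAS, which starts the multiciliated programme, differed by -0.35 (SE 0.22), FOXJ1 by -0.29 (SE 0.20), ARMC4, a dynein-docking factor of motile cilia, by -0.28 (SE 0.25) and CAPS by -0.19 (SE 0.15). Mated replicate 6 had the lowest level of both lists, 6.91 for the secretory and 6.13 for the ciliated genes, and without it the medians were -0.04 and -0.04. Without SP-infused replicate 1 the secretory median was -0.36, and without mated replicate 3 the ciliated median was -0.25, the other ends of what leaving out 1 array gave. Without SP-infused replicates 6 and 8 they were -0.18 and -0.26, with 23 of 25 and 22 of 23 genes lower. Mated replicate 6 also had the highest level of the smooth muscle list, 10.7.

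Smooth muscle genes lay the other way, with 17 of 19 higher in the mated UTJ, a median of 0.18 and 0 genes at p under 0.05. CASQ2, a calcium-binding protein of the sarcoplasmic reticulum, had 6.96, 8.31 and 10.1 in the mated and 6.22, 7.43 and 9.40 in the SP-infused arrays, a difference of 0.80 (SE 0.47). ITGA8 differed by 0.33 (SE 0.20), SYNPO2 by 0.37 (SE 0.28), TPM1 by 0.24 (SE 0.16) and ACTG2 by 0.15 (SE 0.16). The mean level of the list ran from 9.77 to 10.7 in the mated arrays and from 9.06 to 10.6 in the SP-infused arrays, of which replicates 6, 7, 3 and 8 were lowest. Leaving out 1 array moved the median between 0.08 (when SP-infused replicate 6 was left out) and 0.29 (when SP-infused replicate 2 was), and in the absence of SP-infused replicates 6 and 8 it was 0.03 with 11 of the 19 genes higher. Of 44 matrix protein genes 29 were higher with a median of 0.05, led by MFAP5 at 0.56 (SE 0.27), FBLN5 at 0.68 (SE 0.33), FN1 at 0.39 (SE 0.22) and NID2 at 0.42 (SE 0.24), and without the same 2 arrays the median was -0.06. Leaving out 1 array gave 0.00405 (without SP-infused replicate 8) to 0.11 (without mated replicate 3).

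**Figure D3:**
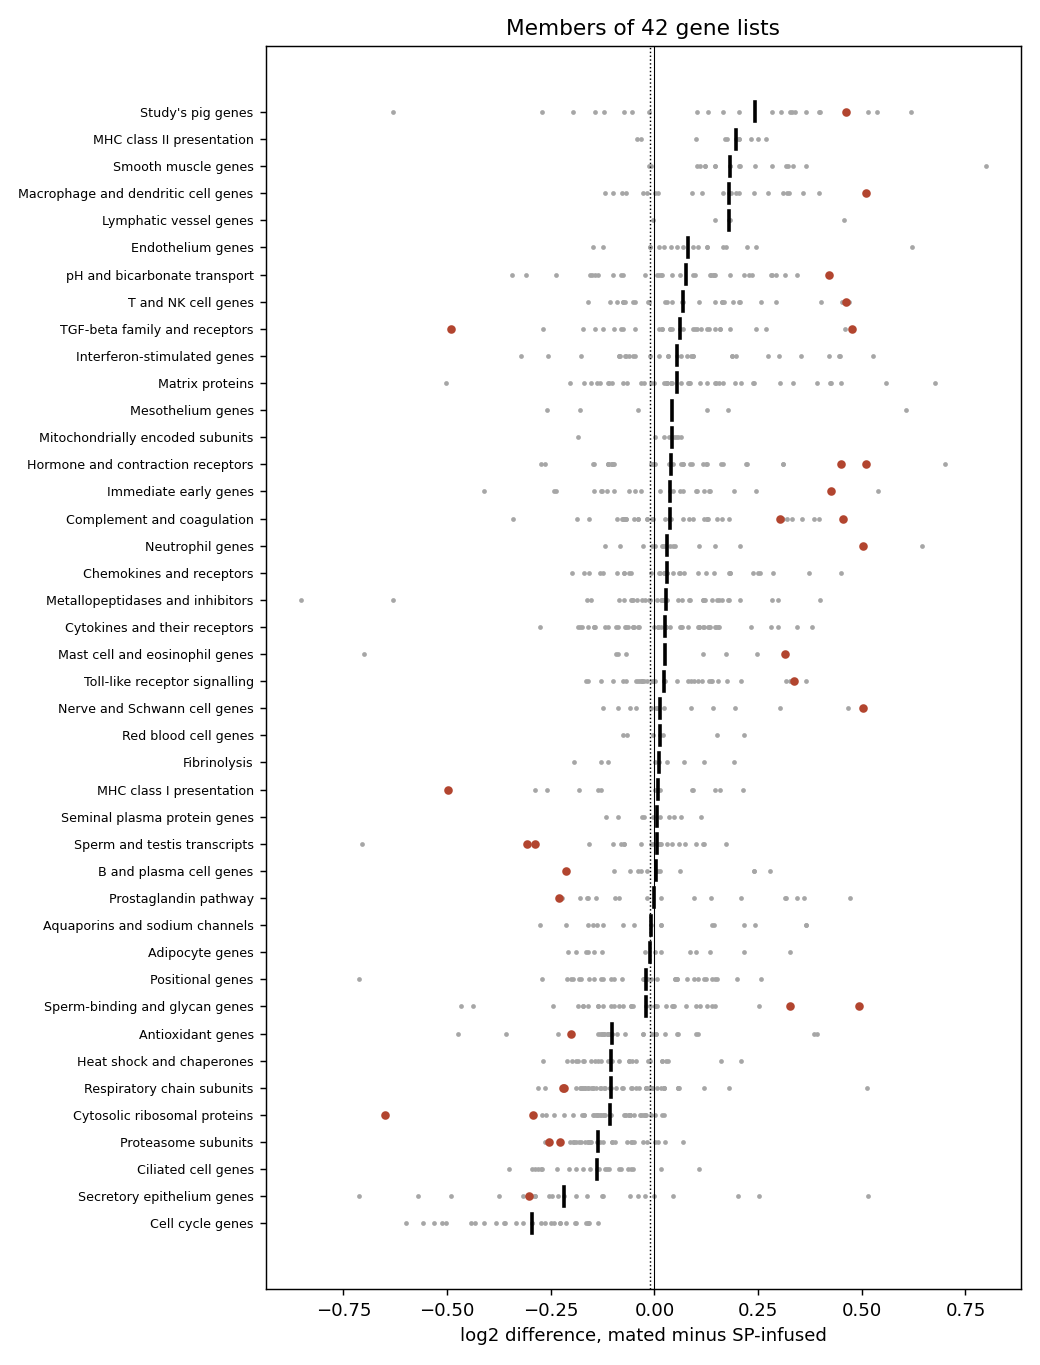
Log2 difference of mated minus SP-infused UTJ (x axis) for each measured member (points) of 42 gene lists (y axis), with the list median as a black bar, members at an unadjusted p under 0.05 in red and the median of all genes as a dotted line. The list medians run from -0.295 for the cell cycle genes to 0.243 for the genes the study singled out.

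Immune cell lists were near or above the median of all genes. Of 23 macrophage and dendritic cell genes 17 were higher in the mated UTJ with a median of 0.18, and 1 had p under 0.05. This was CD80, a costimulatory molecule of antigen-presenting cells, with 4.03, 4.80 and 5.70 in the mated and 3.93, 4.22 and 5.28 in the SP-infused arrays and a difference of 0.51 (SE 0.23). The complement receptor VSIG4 differed by 0.36 (SE 0.22) and the complement genes C1QA, C1QB and C1QC by 0.31 to 0.40, while another probe set of C1QB differed by 0.12. The median of the list was 0.12 without mated replicate 3 or SP-infused replicate 2 or 4, and 0.28 without mated replicate 6. Of 11 genes of MHC class II presentation 9 were higher with a median of 0.20 and 0 had p under 0.05, among them SLA-DOB at 0.25 (SE 0.14), SLA-DQB1 at 0.23 (SE 0.15), SLA-DMA at 0.27 (SE 0.18) and SLA-DRA at 0.20 (SE 0.18). The median was 0.10 without mated replicate 3 and 0.12 without SP-infused replicate 2.

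Of 29 genes of T and NK cells 19 were higher, with a median of 0.07. Leaving out 1 array moved it between 0.00171 (without mated replicate 3) and 0.15 (without mated replicate 6), and it was also 0.15 without SP-infused replicates 6 and 8. GZMK, a granzyme of cytotoxic lymphocytes, had 3.49, 4.00 and 5.22 in the mated and 3.26, 3.82 and 4.20 in the SP-infused arrays, a difference of 0.46 (SE 0.21), and was the only one at p under 0.05. CD2, CD3G and CD5, surface proteins of T cells, differed by 0.47, 0.29 and 0.21. Of 13 B and plasma cell genes 7 were higher, and FCER2, the low-affinity IgE receptor, was lower by a difference of -0.21 (SE 0.10). The mean level of that list was 6.38 in mated replicate 3 and at most 5.54 in the other 15 arrays. Of 8 mast cell and eosinophil genes, FCER1A, of the high-affinity IgE receptor, differed by 0.32 (SE 0.14) and HDC, which makes histamine, by -0.70 (SE 0.55). FCER1A also lay near the bottom of the scale, between 3.12 and 4.18.

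Neutrophils enter the pig uterus in large numbers after semen deposition, and their genes were examined at the UTJ. Of 16 neutrophil genes 12 were higher in the mated UTJ with a median of 0.03, and GP91-PHOX, which macrophages also express, had the only p under 0.05. Leaving out 1 array moved the median between -0.03 (without mated replicate 3) and 0.06 (without mated replicate 2). S100A12, a calcium-binding protein of neutrophils, stood at 10.3 in mated replicate 3 and 8.60 in mated replicate 8. Its other 6 mated arrays lay between 3.92 and 5.03 and the SP-infused arrays between 4.35 and 5.70, and the mean difference of 0.65 (SE 0.67) was -0.00757 without mated replicate 3. S100A9 stayed between 2.92 and 3.72 on all 16 arrays, with the highest value in mated replicate 3. LCN2, an iron-sequestering protein that epithelium also makes, ranged from 4.12 to 10.2 in the mated and from 4.93 to 9.72 in the SP-infused arrays.

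**Figure D4:**
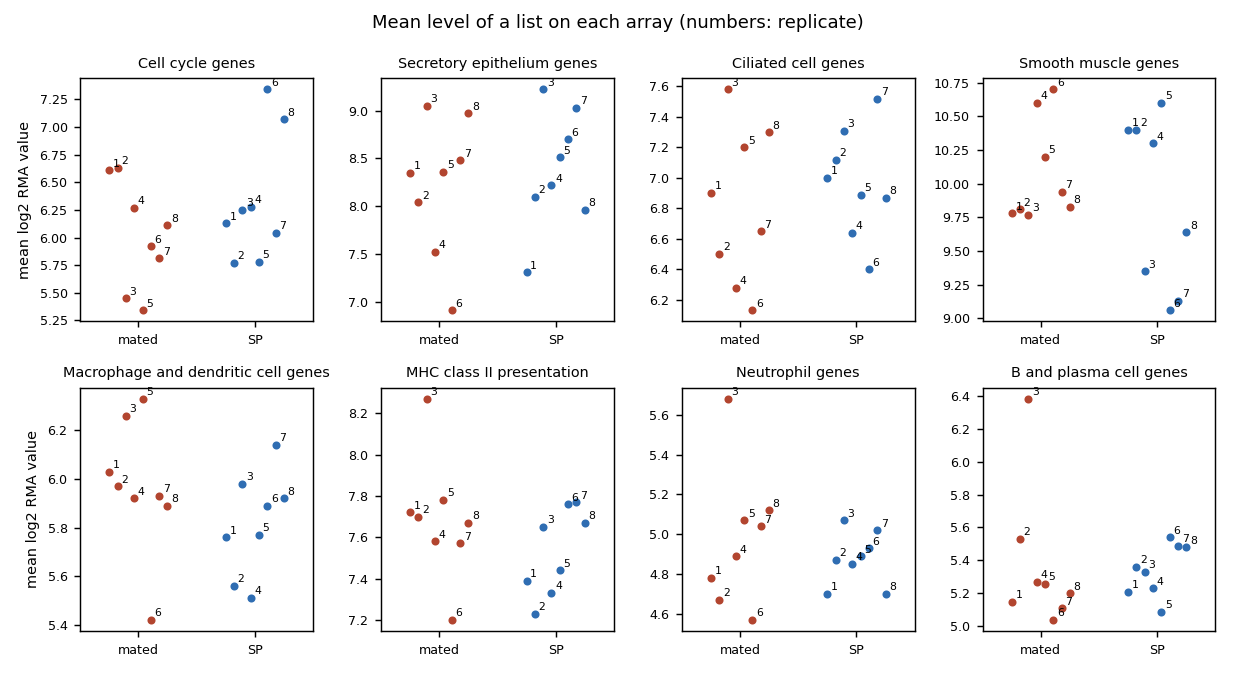
Mean log2 RMA value of the measured members of 8 gene lists on each array (y axis), for the 8 mated (red) and the 8 SP-infused (blue) arrays, with the replicate number beside each point. SP-infused replicates 6 and 8 stand highest for the cell cycle genes (7.34 and 7.07), and mated replicate 3 highest for the B and plasma cell genes (6.38).

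The signalling lists had medians between 0.01 and 0.06. That of the interferon-stimulated genes ran from -0.03 to 0.14 when single arrays were left out, the ends being SP-infused replicate 1 and mated replicate 6. Of 51 genes of cytokines and their receptors 31 were higher in the mated UTJ and 0 had p under 0.05. IL18, a cytokine of macrophages and epithelium, had 5.94, 6.37 and 6.70 in the mated and 5.54, 5.93 and 6.48 in the SP-infused arrays. Its difference was 0.38 (SE 0.19), and that of its receptor IL18R1 was 0.34 (SE 0.19). Between these in order of p came IL5 at -0.16 (SE 0.09) and IL11RA at -0.275 (SE 0.15), both lower in the mated UTJ. IL5 and IL18R1 lay near the bottom of the scale, with means of 2.89 and 3.92 over the 24 arrays. Of 34 genes of chemokines and receptors 23 were higher and 0 had p under 0.05, with CCL4 at 0.29 (SE 0.15) and CCL3L1 at 0.18 (SE 0.09). Next in order of p came CCL24 at 0.24 (SE 0.12) and CCL27 at -0.20 (SE 0.12). CCL4 lay near the bottom of the scale, between 3.54 and 4.71 on all 16 arrays. Of 31 interferon-stimulated genes 19 were higher and 0 had p under 0.05; CXCL9 differed by 0.45 (SE 0.25), IFIT2 by 0.53 (SE 0.33) and GBP1 by 0.30 (SE 0.18). Among the toll-like receptor genes TLR1, a receptor of bacterial lipoproteins, differed by 0.34 (SE 0.14), whereas another, dimmer TLR1 probe set differed by -0.11. SLA-5, of MHC class I, was lower in 7 of 8 mated arrays than the SP-infused median of 5.54 and differed by -0.50 (SE 0.23).

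SP of the boar is rich in TGF-beta, and 31 genes of that family, its receptors and antagonists were measured. TGFB3, a ligand, had 5.70, 6.31 and 7.24 in the mated and 5.30, 5.96 and 6.31 in the SP-infused arrays, a difference of 0.48 (SE 0.22). GREM1, an antagonist of the bone morphogenetic proteins, had 4.15, 4.61 and 4.89 against 4.48, 5.09 and 5.75, a difference of -0.49 (SE 0.23), with all mated arrays below the SP-infused median. The other 29 had p of 0.05 or more, and 22 of the 31 were higher. The median of the list was 0.06, and without SP-infused replicates 6 and 8 it was 0.001, with 16 genes higher and 15 lower. Of 38 complement and coagulation genes 21 were higher and 17 lower, with a median of 0.04. Without SP-infused replicates 6 and 8 the median was -0.01, with 18 genes higher and 20 lower. C9, of the membrane attack complex, differed by 0.30 (SE 0.09) and F2R, the thrombin receptor, by 0.45 (SE 0.22). TFPI and C7 differed by 0.38 (SE 0.19) and 0.36 (SE 0.20). C9 lay between 3.85 and 4.58 on all 16 arrays, with every mated array above the SP-infused median.

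Of 36 genes tied to hormones and contraction 21 were higher in the mated UTJ, with a median of 0.04. Without SP-infused replicates 6 and 8 the median was -0.07, with 12 genes higher and 24 lower. In this list 2 genes had p under 0.05 (5.56%, against 3.31% over all genes). GHR, the growth hormone receptor, had 5.99, 6.32 and 7.12 in the mated and 5.21, 6.10 and 6.43 in the SP-infused arrays and a difference of 0.45 (SE 0.17), and ADRA1A, an adrenergic receptor that contracts smooth muscle, one of 0.51 (SE 0.22). EDNRB, an endothelin receptor, differed by 0.31 (SE 0.22). PGR, the progesterone receptor and the brightest of the list, had 9.44, 11.2 and 11.5 in the mated and 10.9, 11.2 and 11.6 in the SP-infused arrays, with a difference of -0.26 (SE 0.32). Among 18 prostaglandin genes, PTGES3, a synthase and co-chaperone, differed by -0.23 (SE 0.11), PTGIS, the prostacyclin synthase, by 0.32 (SE 0.20) and PTGFR, the receptor of prostaglandin F2α, by -0.18 (SE 0.36).

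Genes of ion transport and sperm binding bear on the fluid of the reservoir and the attachment of spermatozoa. HVCN1, a voltage-gated proton channel, had 5.43, 6.02 and 6.45 in the mated and 5.08, 5.59 and 5.91 in the SP-infused arrays, a difference of 0.42 (SE 0.17), and was the only one of 34 genes of pH and bicarbonate transport at p under 0.05 (2.94%, against 3.31% over all genes); SLC26A2 differed by -0.15 (SE 0.08). Of 35 sperm-binding and glycan genes 2 had p under 0.05 (5.71%). ST3GAL6, a sialyltransferase, differed by 0.49 (SE 0.20) and HYAL1, a hyaluronidase, by 0.33 (SE 0.15). All SP-infused arrays lay below the mated median for both. For HYAL1, SP-infused replicates 6 and 8 stood at 4.51 and 4.37. Its other SP-infused arrays lay between 5.18 and 5.47, inside the mated range of 5.17 to 5.68.

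Transcripts of spermatozoa themselves were examined, since only mating brought these cells. Of 23 sperm and testis transcripts 12 were higher and 11 lower in the mated UTJ, with a median of 0.01. The mean level of the list ran from 3.94 to 4.19 in the mated, from 3.97 to 4.20 in the SP-infused and from 4.03 to 4.39 in the control arrays. Signals below about 5 can lie near the background, where differences are compressed. The list as a whole therefore cannot decide whether sperm transcripts were present. The 2 members at p under 0.05 were both lower after mating, namely IZUMO1, which binds the egg, with 4.62, 4.99 and 5.27 against 4.97, 5.28 and 5.60 and a difference of -0.31 (SE 0.11), and TERB2, a meiotic telomere protein at the bottom of the scale, with a difference of -0.29 (SE 0.08). AKAP4, a scaffold of the sperm tail that spread from 3.67 to 6.62 in the mated and from 5.40 to 6.90 in the SP-infused arrays, differed by -0.70 (SE 0.37). The 10 measured genes of SP proteins had a median of 0.01 and 0 at p under 0.05, and the brightest, MSMB, lay between 7.27 and 8.14 on all 16 arrays.

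Housekeeping lists leaned slightly lower in the mated UTJ. Of 41 cytosolic ribosomal protein genes 38 were lower with a median of -0.11, of 30 proteasome genes 26 with -0.14 and of 51 respiratory chain genes 39 with -0.10. Members at p under 0.05 were RPS6 and RPS20 (-0.29, SE 0.12), the proteasome assembly chaperones PSMG4 (-0.23, SE 0.09) and PSMG3 (-0.26, SE 0.11), and NDUFB7 (-0.22, SE 0.09) and NDUFB2 (-0.22, SE 0.11) of complex I. The direction of these 3 lists, and of the cell cycle, epithelial, smooth muscle, macrophage and MHC class II lists, was the same with array medians made equal, with cyclic loess and with quantile normalization. Without SP-infused replicates 6 and 8 the medians were -0.05, -0.03 and -0.05. The proteasome median was -0.09 without mated replicate 5 and -0.08 without SP-infused replicate 8, and that of the respiratory chain was -0.05 without mated replicate 5 and -0.06 without mated replicate 7. Of 28 genes of heat shock and chaperones 22 were lower with a median of -0.10 and 0 at p under 0.05, among them HSPA8, a constitutive chaperone, at -0.13 (SE 0.10) and DNAJA1, its partner, at -0.20 (SE 0.12). The median was -0.05 without mated replicate 5 and -0.07 without SP-infused replicate 8. Leaving out SP-infused replicates 6 and 8 together gave -0.05. Of 30 antioxidant genes 21 were lower with a median of -0.10, and KEAP1, the inhibitor of the NRF2 response, differed by -0.20 (SE 0.08), while GPX3 differed by 0.39 (SE 0.29). The antioxidant median was -0.06 without mated replicate 3 or 6 or SP-infused replicate 6 or 8, -0.03 without mated replicate 5, and -0.02 without SP-infused replicates 6 and 8.

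Among the remaining lists, EGR2, an immediate early transcription factor, had 5.80, 6.01 and 6.89 in the mated and 5.34, 5.75 and 5.97 in the SP-infused arrays. All mated arrays were above the SP-infused median, and the difference was 0.42 (SE 0.19). RGS2 and IER3 of the same list of 25 differed by 0.54 (SE 0.36) and -0.41 (SE 0.30). Of 38 genes of metallopeptidases and inhibitors 0 had p under 0.05; MMP1, a collagenase, had 3.76, 4.53 and 7.29 in the mated and 3.96, 5.54 and 7.25 in the SP-infused arrays, a difference of -0.85 (SE 0.57), MMP3 one of -0.63 (SE 0.46) and ADAMTS8 one of 0.28 (SE 0.16). The vessel genes MMRN2, TEK and PROX1 differed by 0.62 (SE 0.34), 0.25 (SE 0.14) and 0.46 (SE 0.23). Another MMRN2 probe set of nearly the same level differed by 0.02, so the value of 0.62 rests on 1 of 2 probe sets. Of 14 nerve and Schwann cell genes 9 were higher and 5 lower in the mated UTJ, with a median of 0.01. The glial gene CDH19 differed by 0.50 (SE 0.21) and NCAM1 by 0.47 (SE 0.24). CDH19 lay between 2.9 and 4.7 on all 16 arrays, near the bottom of the scale. Of 14 adipocyte genes 7 were higher and 7 lower in the mated UTJ, with a median of -0.01. Among them PCK1 and LEP, both near the bottom of the scale, differed by -0.21 (SE 0.10) and -0.16 (SE 0.08). Another PCK1 probe set differed by -0.06. Of 24 genes that the study itself singled out from comparisons of these sows with controls, and which therefore are not independent of these arrays, 16 were higher in the mated UTJ with a median of 0.24, among them DPP4, a dipeptidyl peptidase of epithelium and T cells, at 0.54 (SE 0.26) and SLC35F1 at 0.62 (SE 0.33). Their median was 0.15 without mated replicate 3 and 0.13 without SP-infused replicates 6 and 8.

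The spread within each group exceeded the difference between the groups for the genes of largest SD over the 16 arrays. OLFM4, a secreted glycoprotein of glands, ranged from 4.43 through 8.59 to 10.6 in the mated, from 4.38 through 8.96 to 11.2 in the SP-infused and from 3.82 through 7.98 to 10.4 in the control arrays. MUC4, a membrane mucin, had 3.70, 9.22 and 10.6 against 4.47, 9.05 and 10.7, and OVGP1, the oviduct-specific glycoprotein, 5.53, 9.03 and 11.9 against 5.37, 8.76 and 11.9. Both groups thus covered the same span of several log2 units, and the differences were -0.07 (SE 1.09), 0.05 (SE 0.95) and 0.20 (SE 1.03). VNN2 differed by -0.75 (SE 1.05), FGFBP1, a carrier of fibroblast growth factors, by -0.57 (SE 0.88), MMP7, an epithelial metallopeptidase, by -0.16 (SE 0.78), CP, ceruloplasmin, by -0.21 (SE 0.79) and OSTN, a secreted peptide, by -0.15 (SE 0.94). The 95% intervals of these 8 genes all reached past 1 and -1, so that neither a 2-fold rise nor a 2-fold fall was outside what the arrays allow. OLFM4, VNN2, MUC4, LCN2 and CP ran together along the first principal component, against OSTN and AGTR2, an angiotensin receptor.

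**Figure D5:**
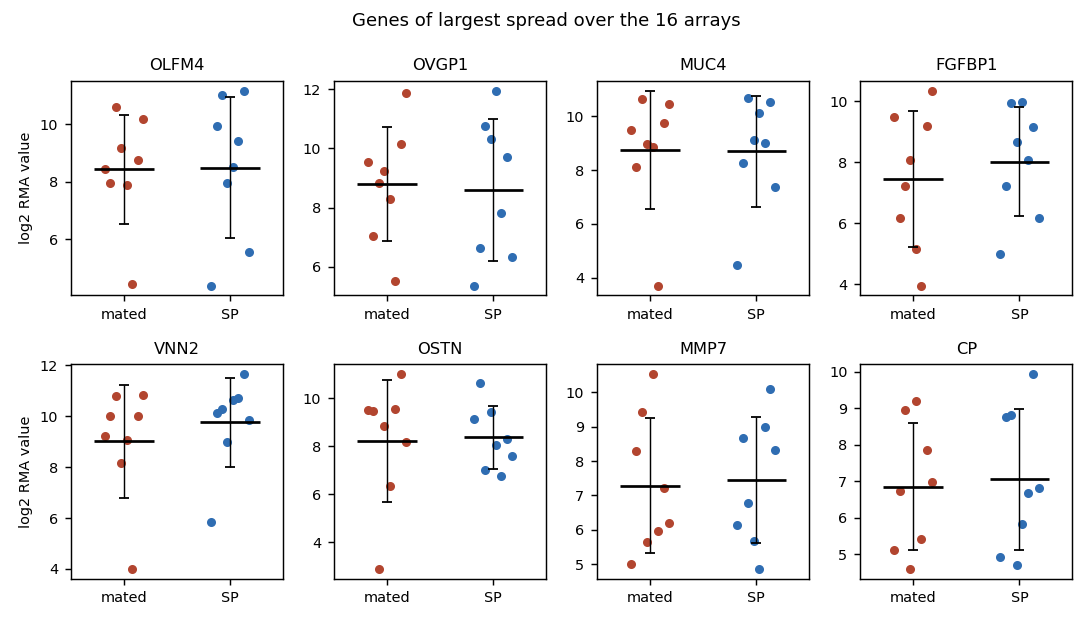
Log2 RMA values of the 8 genes of largest SD over the 16 arrays (points), with the group mean (bar) and SD (whiskers), for the 8 mated (red) and 8 SP-infused (blue) arrays. OLFM4 spans 4.43 to 10.6 in the mated and 4.38 to 11.2 in the SP-infused arrays, and the groups overlap for each gene.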

How the data were processed

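The 24 arrays (porcine whole-transcript gene arrays) were RMA-normalised by the authors, and the deposited table held log2 expression values for 27558 probe sets, which were used as deposited. The 8 mated, 8 SP-infused and 8 control arrays were grouped by their labels. Of the probe sets, 13327 had 1 gene symbol in the platform annotation, 357 several and 13874 none; the brightest probe set stood for each of 12365 genes. A linear model over the 24 arrays was fitted in limma (3.58.1, R 4.3.3) with empirical Bayes moderation, and the contrast of mated minus SP-infused was tested with Benjamini-Hochberg adjustment over all probe sets at 0.05. The procedure was tested on simulated data with independent arrays, which leaves out the likeness of arrays from the same sow. The members and the 42 lists were chosen with earlier results of these data known. Named genes were the 12 of lowest p in each direction with a mean of at least 5 and the 5 of largest difference in each direction at an unadjusted p under 0.05. The 8 of largest SD were added, and per list a choice from the 4 of lowest p and the 2 of highest mean. RPS6 falls under the rule of largest difference, and AGTR2 was chosen after its values were seen. Signals below about 5 can lie near the background, and RMA compresses differences there. The number of arrays limits the precision. Alternatives were 10 other settings and leaving out each of the 16 arrays.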

Additional observations from a re-analysis of the deposited data

Results flagged for a closer look

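In 356 groups of 8 values (named genes and list means, by treatment) a lowest or highest array stood far from the rest in 15. Chance gives about 1 in 20, which is 17.8 groups, so the number found was no more than chance gives. Mated replicate 6 was low for OLFM4 (4.429, next array 7.892), MUC4 (3.704, next 8.121), VNN2 (3.992, next 8.164) and the mean of the interferon-stimulated genes (6, next 6.78). Mated replicate 3 was high for SLA-DMA (7.363, next 6.405), S100A9 (3.718, next 3.307) and the B and plasma cell genes (6.38, next 5.53), and low for PTGFR (7.366, next 8.836). Mated replicate 7 was high for MMP1 (7.287, next 5.292) and MMP3 (5.776, next 3.992) and low for NDUFB7 (6.566, next 6.86). Mated replicate 2 was high for IHH (6.313, next 5.667) and TERB2 (3.029, next 2.632). SP-infused replicate 1 was low for VNN2 (5.833, next 8.974) and SP-infused replicate 7 for the adipocyte genes (5.49, next 5.65).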

How the results depend on the processing

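No probe set passed an adjusted p of 0.05 under any alternative, with a lowest adjusted p of 0.142 in the fit of the 16 arrays alone. Under the other alternatives 285 to 487 genes had an unadjusted p under 0.05, and 8664 of 8968 (filter on a mean of 5) to 12110 had an interval inside -1 to 1. Leaving out 1 array gave 235 to 585 genes at p under 0.05 and 11886 to 12003 with such an interval. The alternative without SP-infused replicates 6 and 8, chosen after seeing the data, gave 201 genes; the cause was not tested. With the replicate block 444 genes had p under 0.05, 0 probe sets passed the adjusted threshold (lowest 0.314) and 12031 intervals lay inside -1 to 1; the numbers did not pair the arrays, since the correlation of same-numbered deviations ran from -0.32 to 0.395 and was over 0.1 for 2 of 8 pairs, and 1 of 8 mated arrays correlated best with its own number. Of the 136 named genes followed across the settings, 126 kept their direction in every setting. The others changed sign when single arrays were left out: OLFM4 ran from -0.654 to 0.504, OVGP1 from -0.263 to 0.677, MUC4 from -0.551 to 0.772, OSTN from -0.545 to 0.615, MMP7 from -0.625 to 0.217, CP from -0.543 to 0.204, PTGFR from -0.283 to 0.0763, S100A12 from -0.00757 to 0.9, LCN2 from -0.337 to 0.552 and MSMB from -0.0326 to 0.0914. LCN2 was -0.0681 with array weights and -0.0846 without SP-infused replicates 6 and 8, which gave -0.313 for OVGP1, -0.116 for MUC4 and 0.243 for MMP7; the cause was not tested. Under the filter on a mean of 5 the median of the adipocyte genes was 0.0921 and that of the aquaporins and sodium channels -0.132.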
